A study of Mus musculus with 30 samples.

Results

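Collagen VI is a matrix protein built from an alpha 1, an alpha 2 and an alpha 3 chain, which are encoded by Col6a1, Col6a2 and Col6a3. The promoter of Col6a1 also drives the Cre recombinase in the mice studied here, so the RNA of these genes was followed across all sorted and unsorted cell groups. The members were taken as the rows with these gene names in every deposited table, 3 genes of the 20093 listed in any table and all found in each of the 14 tables. RNA was measured by 3' sequencing in intestinal mesenchymal cells of C57BL/6 mice with the genotype ColVI-cre, Rosa mTmG, freshly isolated. The colon gave GFP-positive, GFP-negative (named Tomato in the labels) and unsorted cells, from DSS-treated and from normal mice. DSS, dextran sulfate sodium, is given in drinking water to cause colitis. The small intestine of normal mice gave GFP-high, GFP-low, GFP-negative and unsorted cells. Each of the 10 groups has 3 labelled replicates, of which 29 libraries of 30 were analysed here, with replicates 2 and 3 for the unsorted small intestine. All groups, GFP-negative and unsorted included, come from mice that carry the transgene. The age, the number of animals behind a library and whether animals were pooled are not given in the labels, so the p-values measure the spread between these samples, which may be technical.

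The alpha chains of collagen VI join inside the cell, pair into larger units and are secreted, and then form beaded filaments close to the cell surface that link cells to the fibrillar matrix. Mice have further chains, encoded by Col6a4, Col6a5 and Col6a6, that can take the place of alpha 3. In the mTmG reporter, Cre activity turns a cell and all its descendants from red to green for good. GFP therefore records that the driver was active at some time in a cell's lineage, whereas an RNA library records what the cell transcribes when it is taken.

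Col6a2 and Col6a1 are neighbours on chromosome 10 (chr10:76595762-76623630 and chr10:76708792-76726168, mm10, both on the minus strand), 85162 bases apart, and Col6a3 lies on chromosome 1 (chr1:90765923-90843971, minus strand). The promoters of the endogenous genes are shown because the Col6a1 promoter is the source of the Cre driver and Col6a2 and Col6a3 encode the partners of its chain. They run from 250 bases before to 50 bases after the RefSeq start site and read in the direction of transcription (RefSeq, GRCm38.p6). The sequence of the transgene itself was not analysed here. For Col6a2 the more downstream of its RefSeq starts in the table is shown. Capitals mark matches to TGANTCA, the AP-1 site, in Col6a1 and to GGGCGG, the GC box, in Col6a2, on either strand.
Col6a1, chr10:76725995-76726294, minus strand: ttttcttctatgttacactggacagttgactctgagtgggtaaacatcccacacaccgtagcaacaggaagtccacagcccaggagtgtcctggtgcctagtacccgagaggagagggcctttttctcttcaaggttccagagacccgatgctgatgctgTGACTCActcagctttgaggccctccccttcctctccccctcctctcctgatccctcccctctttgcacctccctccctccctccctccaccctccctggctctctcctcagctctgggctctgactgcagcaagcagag
Col6a2, chr10:76623355-76623654, minus strand: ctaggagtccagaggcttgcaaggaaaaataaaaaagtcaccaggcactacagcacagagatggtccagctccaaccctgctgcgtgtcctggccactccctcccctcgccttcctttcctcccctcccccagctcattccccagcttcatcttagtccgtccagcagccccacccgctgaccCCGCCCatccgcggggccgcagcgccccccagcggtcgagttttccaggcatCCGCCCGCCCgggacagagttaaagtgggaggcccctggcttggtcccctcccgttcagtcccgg
Col6a3, chr1:90843922-90844221, minus strand: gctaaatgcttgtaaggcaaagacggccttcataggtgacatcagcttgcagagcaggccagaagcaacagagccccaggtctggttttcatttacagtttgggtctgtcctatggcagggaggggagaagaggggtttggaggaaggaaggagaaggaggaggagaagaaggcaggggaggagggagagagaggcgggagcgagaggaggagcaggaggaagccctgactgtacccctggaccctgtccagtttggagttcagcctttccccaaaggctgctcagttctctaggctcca

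Both strands were searched for the GC box GGGCGG, for the CCAAT box (the letters of its name), for the TATA box in the form TATAAA, for the AP-1 site TGANTCA and for the E-box, spelled CANNTG. The Col6a1 window held 1 match to TGANTCA, 90 bases upstream of the start site, and 1 to CANNTG, 228 bases upstream. The Col6a2 window held 3 matches to GGGCGG, at 67, 15 and 11 bases upstream, the last 2 of which overlap, and none of the other motifs. The Col6a3 window held no match to any of the 5. The windows thus share none of these motifs. Among the 32851 promoters of the same length in the table, 7.8% held TGANTCA, 35.7% held GGGCGG, 37.4% held CCAAT, 13.6% held TATAAA and 72.3% held CANNTG. A match is a stretch of letters, and binding was not measured.

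The authors normalised libraries of the DSS colon, of the normal colon and of the small intestine apart from each other, and the DSS and normal sorted colon cells were in addition put on a common scale. Levels are the authors' normalised read counts from 3' sequencing, which were not divided by transcript length. Counts of different chains are set side by side on that ground. Whether the 3' ends of the chains were captured equally well was not checked. Estimated reads per library were 2475000 to 3842000 in 7 of 9 DSS colon libraries, 3176000 to 4416000 in 5 of 9 normal colon libraries and 1228000 to 4026000 in 10 of 11 small intestine libraries; the others could not be resolved. All 9 mesenchymal marker genes were in the tables, with a summed level of 8712 to 27773 CPM (counts per 1000000 of the library total) in the sorted libraries. The summed level of 10 epithelial markers in the colon was 64.1 to 242 CPM in DSS and 35.0 to 158 CPM in normal sorted libraries, and no marker of these lists was at 0 throughout a group.

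**Figure D1:**
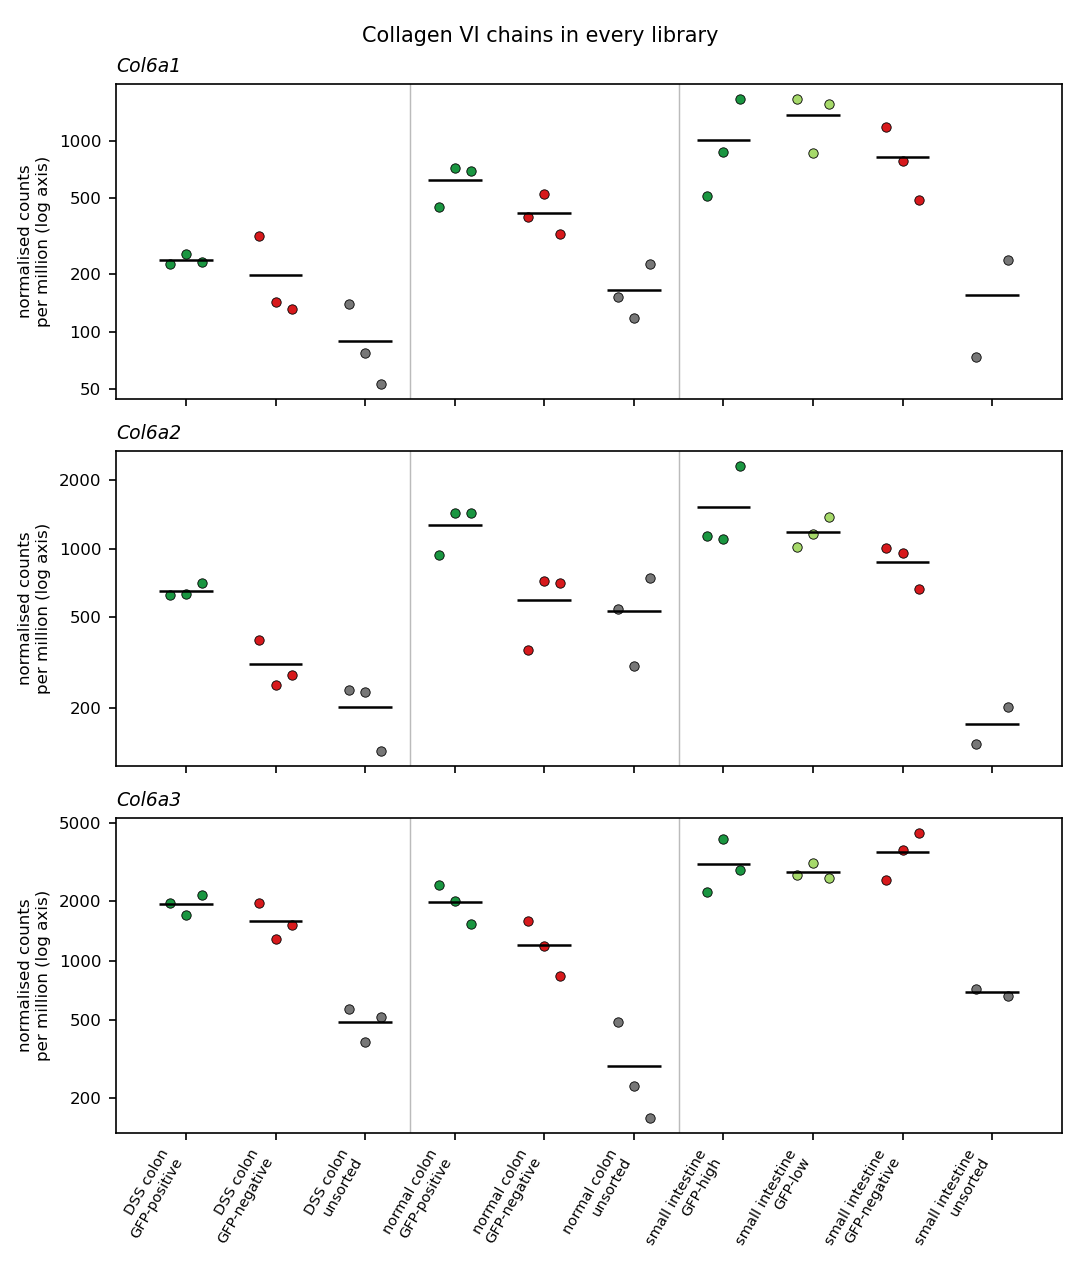
Normalised read counts in CPM, per library total over the 12669 genes in all tables (log axis), for Col6a1, Col6a2 and Col6a3; each point is a library and each bar the mean of its group. Sorted groups lie above the unsorted group of the same tissue for Col6a3 throughout, and sorted cells of the DSS colon lie below those of the normal colon for Col6a1.

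The first question was whether present RNA of the driver gene marks the cells that carry the GFP label. In the colon it did not separate them. Col6a1, which encodes the alpha 1 chain, had 675, 804 and 661 normalised counts in GFP-positive DSS colon cells, against 968, 491 and 406 in GFP-negative cells. The highest library of the comparison was GFP-negative, and the groups overlapped. In the normal colon Col6a1 had 1818, 2552 and 2737 counts in GFP-positive cells, against 1570, 2136 and 1356 in GFP-negative cells. The lowest GFP-positive library lay inside the GFP-negative range. The log2 fold change of GFP-positive over GFP-negative cells, from limma on log2(value + 1), was 0.30 (SE 0.27, adjusted p = 0.51) in the DSS colon and 0.49 (SE 0.29, adjusted p = 0.45) in the normal colon. Over both conditions it was 0.39, with a 95% interval of -0.05 to 0.83 (adjusted p = 0.25). Without GFP-negative library 1 of the DSS colon, the one with 968 counts, it was 0.67 in the DSS colon (adjusted p = 0.011) and 0.58 over both conditions (adjusted p = 0.041), so this 1 library decides the call.

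Col6a2, the alpha 2 chain, was higher in GFP-positive cells. It had 1859, 2000 and 2015 counts in GFP-positive DSS colon cells, against 1212, 858 and 860 in GFP-negative cells. The groups did not overlap, and the ratio of the means was 2.00. Col6a2 had 3804, 5046 and 5626 counts in GFP-positive cells of the normal colon, against 1409, 2938 and 2942 in GFP-negative cells. Here too all GFP-positive libraries were above all GFP-negative ones, with GFP-negative library 1 far below its group. Its log2 fold change was 1.02 in the DSS colon (SE 0.19, adjusted p = 0.0013). It was of like size but did not pass in the normal colon, where the libraries spread more (1.05, SE 0.35, adjusted p = 0.12). Over both conditions it was 1.03 (SE 0.20, adjusted p = 0.0014).

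Col6a3, the alpha 3 chain, had the most counts of the 3 chains in all 21 sorted libraries. It had 5847, 5426 and 6178 counts in GFP-positive DSS colon cells, against 6003, 4405 and 4666 in GFP-negative cells. The groups overlapped. Col6a3 had 9750, 7116 and 5985 counts in GFP-positive cells of the normal colon, against 6230, 4835 and 3442 in GFP-negative cells. The lowest GFP-positive library stood just below the highest GFP-negative one. Col6a3 had a log2 fold change of 0.22 in the DSS colon (SE 0.19, adjusted p = 0.48), 0.67 in the normal colon (SE 0.33, adjusted p = 0.34) and 0.44 over both (SE 0.19, adjusted p = 0.14). Without GFP-negative library 1 of the normal colon the last value was 0.54 (adjusted p = 0.043).

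By limma, then, 1 of the 3 chains passed in the DSS colon, where 17.1% of all 12570 genes tested were called. None passed in the normal colon, where 5.98% of 13346 genes were called; at an unadjusted p under 0.05 it was 1 of the 3. Over both conditions 1 of 3 passed, beside 16.1% of 13488 genes. The authors' deposited table gives Col6a2 an FDR of 0.935 in the DSS colon, and an FDR of 1 to Col6a1 in both colon comparisons. None of the 3 chains, Col6a2 included, passed 0.05 in their test in the DSS or the normal colon. Markers of other cells moved with the sort in part. The summed level of 5 pericyte markers was 684 to 801 CPM in GFP-positive and 305 to 495 in GFP-negative libraries of the DSS colon, whereas in the normal colon the sums overlapped, at 159 to 202 CPM in GFP-positive and 114 to 207 in GFP-negative libraries. For 8 smooth muscle markers it was 684 to 1006 CPM in GFP-positive and 297 to 446 in GFP-negative libraries of the DSS colon, and 1144 to 1662 in GFP-positive and 302 to 543 in GFP-negative libraries of the normal colon. Immune markers, of which 11 of 12 were in the normal colon tables, summed to 30.5 to 123 CPM in GFP-positive and 262 to 1124 in GFP-negative libraries of the normal colon. In the DSS colon these sums overlapped, at 43.7 to 145 CPM in GFP-positive and 128 to 299 in GFP-negative libraries. The mesenchymal markers summed lower in GFP-positive libraries of the DSS colon (8712 to 10429 CPM) than in GFP-negative ones (17941 to 26910 CPM). In the normal colon the mesenchymal sums overlapped. No marker of these lists was at 0 throughout a group, and their part in the Col6a2 difference was not tested.

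**Figure D2:**
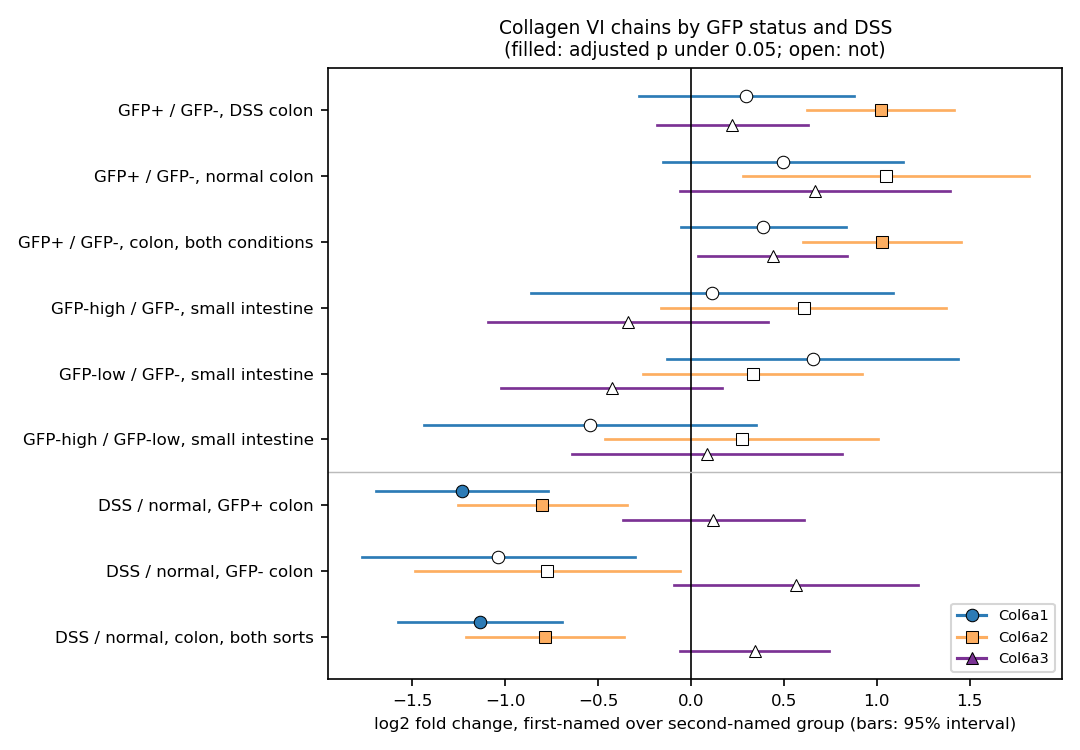
Log2 fold changes of Col6a1, Col6a2 and Col6a3 (points) with 95% intervals (bars) from limma, of the first-named over the second-named group; filled points passed an adjusted p of 0.05. Above the grey line are GFP comparisons and below it DSS comparisons. Col6a2 lies at 1.02 to 1.05 in the colon by GFP, open in the normal colon and filled otherwise. Col6a1 and Col6a2 lie left of 0 under DSS.

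The small intestine had a graded label, so it asked whether more GFP went with more collagen VI RNA. Col6a1 had 1099, 1909 and 3379 counts in GFP-high cells, 3562, 1949 and 3157 in GFP-low cells and 2749, 1841 and 1109 in GFP-negative cells. The mean was greatest in GFP-low cells, and every group overlapped both others. The log2 fold change over GFP-negative cells was 0.11 for GFP-high (95% interval -0.86 to 1.09, adjusted p = 0.95) and 0.65 for GFP-low cells (95% interval -0.13 to 1.44, adjusted p = 0.36). Col6a2 had 2427, 2431 and 4737 counts in GFP-high cells, 2185, 2610 and 2774 in GFP-low cells and 2327, 2244 and 1517 in GFP-negative cells. All GFP-high libraries lay above the GFP-negative ones, narrowly in the nearest pair, and the log2 fold change of 0.61 had a 95% interval of -0.16 to 1.37 (adjusted p = 0.57). Col6a3 had 4793, 9201 and 5914 counts in GFP-high cells, 5830, 7051 and 5303 in GFP-low cells and 5998, 8621 and 10215 in GFP-negative cells. Its mean was greatest in GFP-negative cells, the groups overlapped, and the log2 fold changes over GFP-negative cells were -0.34 (adjusted p = 0.76) in GFP-high and -0.43 (adjusted p = 0.43) in GFP-low cells. GFP-high over GFP-low cells gave -0.54, 0.27 and 0.09 for Col6a1, Col6a2 and Col6a3, with adjusted p from 0.74 to 0.96. None of the 3 chains passed in any of these comparisons by limma, also at an unadjusted p under 0.05, beside 0.894%, 0.675% and 0.384% of all genes called for GFP-high over GFP-negative, GFP-low over GFP-negative and GFP-high over GFP-low cells. The intervals include differences of the size seen for Col6a2 in the colon, so these libraries cannot tell whether the small intestine differs from the colon in this.

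The second question was what colitis did to these RNAs, on the scale common to both conditions. Col6a1 was lower under DSS. In GFP-positive cells it had 789, 945 and 774 counts in the DSS colon, against 1520, 2141 and 2304 in the normal colon. The groups were far apart, and the mean under DSS was 0.420 of the normal mean. In GFP-negative cells Col6a1 had 1137, 579 and 477 counts in the DSS colon, against 1321, 1803 and 1142 in the normal colon. Library 1 of the DSS colon almost touched the normal range, though the groups did not overlap, and the ratio of the means was 0.514. The log2 fold change was -1.23 in GFP-positive cells (SE 0.21, adjusted p = 0.0020) and -1.04 in GFP-negative cells (SE 0.34, adjusted p = 0.070). Without that library the GFP-negative value was -1.41 (adjusted p = 0.022).

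Col6a2 was lower as well. In GFP-positive cells it had 2174, 2349 and 2360 counts in the DSS colon, against 3181, 4232 and 4736 in the normal colon. The groups did not overlap. In GFP-negative cells it had 1423, 1012 and 1010 counts in the DSS colon, against 1186, 2480 and 2477 in the normal colon. The low normal library 1 fell inside the DSS range. Its log2 fold change was -0.80 in GFP-positive cells (SE 0.21, adjusted p = 0.019) and -0.77 in GFP-negative cells (SE 0.33, adjusted p = 0.15). The GFP-positive call was lost when any 1 of the DSS libraries was left out, with adjusted p from 0.064 to 0.087, and the GFP-negative value was -1.13 (adjusted p = 0.0085) without normal library 1.

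Col6a3 kept a high level under DSS. In GFP-positive cells it had 6838, 6375 and 7234 counts in the DSS colon, against 8154, 5968 and 5039 in the normal colon. The DSS libraries lay within the spread of the normal ones. In GFP-negative cells it had 7047, 5191 and 5482 counts in the DSS colon, against 5242, 4080 and 2899 in the normal colon. The groups overlapped by a narrow margin. Col6a3 had a log2 fold change of 0.12 in GFP-positive cells (95% interval -0.37 to 0.61, adjusted p = 0.74) and 0.56 in GFP-negative cells (95% interval -0.09 to 1.22, adjusted p = 0.25).

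Over both sorts together, DSS gave log2 fold changes of -1.13 for Col6a1 (SE 0.21, adjusted p = 0.00078), -0.79 for Col6a2 (SE 0.20, adjusted p = 0.0075) and 0.34 for Col6a3 (SE 0.19, adjusted p = 0.18). Thus 2 of the 3 chains fell under DSS in GFP-positive cells, beside 19.7% of all 12976 genes called and 9.46% called lower, and the same 2 over both sorts, beside 30.7% of 13488 genes called and 14.8% called lower. In GFP-negative cells none of the 3 passed with limma, beside 10.3% of 13025 genes, and 2 did at an unadjusted p under 0.05. The difference of the DSS responses, GFP-positive minus GFP-negative, was -0.20 for Col6a1 (95% interval -1.08 to 0.69, adjusted p = 0.94), -0.03 for Col6a2 (95% interval -0.88 to 0.82, adjusted p = 0.99) and -0.44 for Col6a3 (95% interval -1.25 to 0.36, adjusted p = 0.80). The DSS response was thus not shown to depend on GFP status for any of them, and only 0.0519% of all genes had a difference that passed. The authors' deposited table lists log2 fold changes of -1.25 for Col6a1 and -0.82 for Col6a2 in GFP-positive cells, both with an FDR of 1.

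In bulk RNA fewer cells of a type and less RNA per cell cannot be told apart. The summed level of the 9 mesenchymal markers in GFP-positive libraries was 8712 to 10429 CPM under DSS and 18654 to 23886 CPM in the normal colon. In GFP-negative libraries it was 17941 to 26910 CPM under DSS and 20597 to 27773 CPM in the normal colon. The 5 pericyte markers in GFP-positive libraries summed to 684 to 801 CPM under DSS and 159 to 202 CPM in the normal colon, and in GFP-negative libraries to 305 to 495 CPM under DSS and 114 to 207 CPM in the normal colon. The 8 smooth muscle markers in GFP-positive libraries summed to 684 to 1006 CPM under DSS and 1144 to 1662 CPM in the normal colon, and in GFP-negative libraries to 297 to 446 CPM under DSS and 302 to 543 CPM in the normal colon. The 3 markers of interstitial cells of Cajal in GFP-positive libraries summed to 40.7 to 52.7 CPM under DSS and 109 to 169 CPM in the normal colon. Mesenchymal, smooth muscle and Cajal cell sums were thus lower under DSS in GFP-positive libraries, and pericyte sums higher, without overlap. The mesenchymal list was Pdgfra, Pdgfrb, Vim, Dcn, Lum, Col1a1, Col1a2, Col3a1 and Thy1. It holds matrix genes that are also reported singly below, so its sum is not a count of cells. Their part in the fall of Col6a1 and Col6a2 was not tested. DSS and normal libraries were normalised in separate tables as well as together, and whether they were prepared at the same time is not given in the sources used here, so condition and preparation cannot be told apart.

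The balance of the chains was also compared within each library, where scaling plays no part. These ratios restate the fold changes above on the same libraries, so their p-values are not independent support for a difference between the chains. The log2 ratio of Col6a1 to Col6a3 was -3.11, -2.75 and -3.22 in GFP-positive DSS colon cells, against -2.42, -1.48 and -1.13 in those of the normal colon. It was -2.63, -3.16 and -3.52 in GFP-negative cells of the DSS colon, against -1.99, -1.18 and -1.34 in those of the normal colon. All DSS libraries lay below all normal libraries, with a mean difference of -1.48. Within sorts, an exact permutation test of DSS against normal gave a two-sided p of 0.005 (adjusted over the 6 ratio tests p = 0.015), the smallest the 400 arrangements allow. Without GFP-positive library 1, 2 or 3 of the DSS colon the adjusted p of this test was 0.06, at differences of -1.46, -1.55 and -1.43. Fewer libraries allow fewer arrangements, so a higher p there need not mean a smaller difference. The log2 ratio of Col6a2 to Col6a3 was -1.65, -1.44 and -1.62 in GFP-positive DSS colon cells, against -1.36, -0.50 and -0.09 in those of the normal colon. It was -2.31, -2.36 and -2.44 in GFP-negative cells of the DSS colon, against -2.14, -0.72 and -0.23 in those of the normal colon. Within each sort the DSS libraries were below the normal ones, by a mean of -1.13, with the same exact permutation p of 0.005 (adjusted p = 0.015). Without any 1 of the DSS libraries its adjusted p was 0.05 to 0.075, at differences of -1.11 to -1.16. The ratio of Col6a1 to Col6a2 differed less between conditions, by -0.35 (exact permutation p = 0.13, adjusted p = 0.156).

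By GFP status the ratio of the chromosome 10 neighbours passed the test, though most fits without 1 library did not. The log2 ratio of Col6a1 to Col6a2 was -1.46, -1.31 and -1.61 in GFP-positive DSS colon cells, against -0.32, -0.80 and -1.08 in GFP-negative cells. In the normal colon it was -1.06, -0.98 and -1.04 in GFP-positive cells, against 0.16, -0.46 and -1.12 in GFP-negative cells. The groups did not overlap under DSS, and GFP-negative library 3 of the normal colon was below all GFP-positive ones. The mean difference within conditions was -0.64 (exact permutation p = 0.02, adjusted p = 0.04), so GFP-positive cells held less Col6a1 for their Col6a2. Without any 1 of the libraries other than GFP-negative libraries 2 and 3 of the normal colon, the adjusted p was 0.05 to 0.08, at differences of -0.73 to -0.48; fewer libraries also allow fewer arrangements. The ratios to Col6a3 did not pass by GFP status, at -0.05 for Col6a1 (exact permutation p = 0.845, adjusted p = 0.845) and 0.59 for Col6a2 (exact permutation p = 0.11, adjusted p = 0.156). The Col6a2 to Col6a3 values were all higher in GFP-positive than in GFP-negative cells under DSS and overlapped in the normal colon, and whether the ratios differ from each other was not tested.

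**Figure D3:**
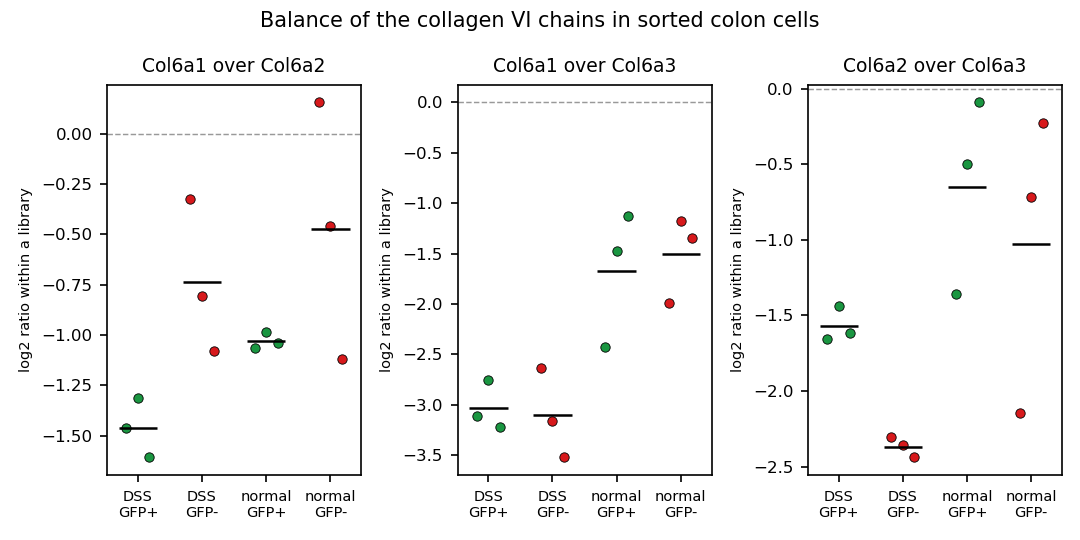
Log2 ratios of the normalised counts of 2 chains within each sorted colon library (points; bars are group means), by condition and GFP status; the dashed line marks equal counts. The DSS libraries lie between -3.52 and -2.63 for Col6a1 over Col6a3, below every normal library, and GFP-positive libraries lie low for Col6a1 over Col6a2.

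As shares of the counts of the 3 genes, Col6a1 made up 7.47% to 9.77% in GFP-positive and 6.84% to 11.8% in GFP-negative libraries of the DSS colon. In the normal colon it made up 11.8% to 19.1% in GFP-positive and 17.0% to 21.6% in GFP-negative libraries. Col6a3 made up 65.9% to 69.8% in GFP-positive and 73.4% to 78.7% in GFP-negative libraries of the DSS colon, and 41.7% to 63.4% in GFP-positive and 44.5% to 67.7% in GFP-negative libraries of the normal colon. The Col6a3 share thus covered a narrower range in each DSS group than in each normal group, whereas the Col6a1 share of GFP-negative cells ranged about as widely under DSS as in the normal colon; no test of spread was run. In the small intestine the Col6a3 share was 42.2% to 67.9% in GFP-high, 47.2% to 60.7% in GFP-low and 54.2% to 79.6% in GFP-negative libraries. In GFP-negative cells of the small intestine the library with the most Col6a3, at 10215 counts, had the least Col6a1, at 1109 counts. The summed level of the chains varied less there, from 11074 to 12841 counts.

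In the summed counts of the 3 chains, all sorted libraries lay above the unsorted ones of the same tissue and condition, and for single chains most sorted groups did. The question here was how sorted mesenchymal cells compare with the unsorted isolate of the same tissue. Col6a1 had 398, 207 and 142 counts in unsorted cells of the DSS colon, 640, 485 and 897 in those of the normal colon and 170 and 523 in those of the small intestine. All sorted libraries of the same tissue were above these. The log2 fold changes of Col6a1 over unsorted cells ran from 1.34 in GFP-negative cells of the colon to 3.23 in GFP-low cells of the small intestine, and all 7 passed with limma (adjusted p 0.0015 to 0.026). Col6a3 had 1621, 1019 and 1373 counts in unsorted cells of the DSS colon, 2046, 941 and 621 in those of the normal colon and 1659 and 1451 in those of the small intestine. Its sorted libraries were above these in every tissue, with log2 fold changes from 1.92 to 2.81 that all passed. Col6a2 had 682, 626 and 344 counts in unsorted cells of the DSS colon, 2283, 1253 and 2937 in those of the normal colon and 321 and 441 in those of the small intestine. The normal unsorted libraries overlapped the GFP-negative ones of the normal colon but no GFP-positive ones. For Col6a2 the log2 fold change was 1.23 in GFP-positive cells of the normal colon (adjusted p = 0.051) and 0.18 in GFP-negative cells of the normal colon (adjusted p = 0.82), and the other 5, from 0.87 to 3.01, passed. The chains that passed numbered 3 and 3 of 3 for GFP-positive and GFP-negative cells of the DSS colon, beside 37.1% and 33% of all genes called. They numbered 2 and 2 of 3 for GFP-positive and GFP-negative cells of the normal colon, beside 21.8% and 18.8%, and 3 of 3 for each of GFP-high, GFP-low and GFP-negative cells of the small intestine, beside 17.2%, 22.8% and 11.5%. In the authors' deposited DESeq test fewer passed 0.05. In the DSS colon these were Col6a2 in GFP-positive cells (FDR 0.019) and Col6a3 in GFP-positive (FDR 0.013) and GFP-negative cells (FDR 0.035). In the normal colon it was Col6a3 in GFP-positive cells (FDR 0.033). Col6a1 passed in none of its comparisons (FDR 0.058 to 0.45), and no chain passed in the small intestine (FDR 0.054 to 0.65). Some of the limma calls rest on single libraries. Col6a2 in GFP-positive over unsorted cells of the normal colon passed without unsorted library 1 (adjusted p = 0.047) or 3 (adjusted p = 0.038). In the normal colon, Col6a1 in GFP-negative over unsorted cells gave adjusted p of 0.091 without unsorted library 2 and 0.061 and 0.14 without GFP-negative libraries 1 and 2. In the DSS colon, GFP-negative over unsorted cells gave 0.069 to 0.074 for Col6a1 without unsorted library 2 or 3 or GFP-negative library 1, and 0.067 to 0.13 for Col6a2 without unsorted library 3 or any 1 GFP-negative library. In the small intestine, with 1 of its 2 unsorted libraries left out, the adjusted p was 0.11 to 0.24 for the chains in GFP-high cells and 0.058 to 0.24 in GFP-negative cells, and in GFP-low cells 0.060 for Col6a1 and 0.053 for Col6a3 without unsorted library 2. There Col6a1 in GFP-negative cells also gave 0.070 and 0.052 without GFP-negative libraries 1 and 2. Immune markers summed to 4409 to 5270 CPM in unsorted libraries of the DSS colon, 3516 to 12187 in those of the normal colon and 12063 to 13401 in those of the small intestine, all above the 1124 CPM that was the greatest sum in a sorted library. The part of these cells in the differences was not tested.

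Set in order by mean level in CPM, with tables on separate scales, Col6a1 was greatest in the GFP-low cells of the small intestine (1363 ± 433, SD, n = 3) and least in unsorted cells of the DSS colon (89.9 ± 44.2, SD, n = 3). Of the 9 pairs of neighbours in that order 8 overlapped; the clear step was between GFP-negative cells of the normal colon (417 ± 101, SD, n = 3) and GFP-positive cells of the DSS colon (237 ± 14.6, SD, n = 3). Col6a2 was greatest in GFP-high cells of the small intestine (1519 ± 689, SD, n = 3), with GFP-positive cells of the normal colon next (1270 ± 284, SD, n = 3), and 7 of its 9 pairs of neighbours overlapped. Col6a3 was greatest in GFP-negative cells of the small intestine (3582 ± 954, SD, n = 3), and 6 of its 9 pairs overlapped. The order of the groups thus differed between the chains at the top, where each was led by another GFP class of the small intestine, though the leading groups of each overlapped.

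The genes most like each chain were also listed. Likeness was taken as Pearson's r of log2 levels, centred within the DSS colon, the normal colon and the small intestine. Across all 29 libraries, which share depth and the contrast of sorted with unsorted cells, r was 0.87 between Col6a1 and Col6a2, 0.75 between Col6a1 and Col6a3 and 0.67 between Col6a2 and Col6a3. Across the 21 sorted libraries it was 0.57, -0.01 and 0.06 for the same pairs. Among 11630 genes, those nearest to Col6a1 over all libraries were Nid1, which encodes the basement membrane protein nidogen (r = 0.92), Ston1 (0.91), Wwtr1, the co-activator TAZ (0.91), C1s1, a complement protease (0.90), and Fhl1 (0.90). Nearest to Col6a2 were Gpx3, a secreted glutathione peroxidase (0.90), Ggt5 (0.90), Tspan6 (0.89), Twsg1, a BMP-binding protein (0.88), and, at the fifth place, Col6a1 (0.87). Nearest to Col6a3 were Chpf, a chondroitin polymerizing factor (0.94), Zcchc24 (0.93), Fut10 (0.93), Efemp2, the elastic fibre protein fibulin-4 (0.93), and A4galt (0.93). These lists share no gene outside the chains. Values of r within a list lay close together and no expected overlap was computed, so this does not show that the chains differ in their neighbours. Over the sorted libraries alone the nearest were Slc25a24 (0.82), Dync1i2 (0.80), Oxr1 (0.78), Cdc40 (0.78) and Lims1 (0.76) for Col6a1. For Col6a2 they were Myh9, a non-muscle myosin heavy chain (0.91), Nbl1, a BMP antagonist (0.89), Tspan6 (0.88), Skap2 (0.88) and Fendrr (0.87). For Col6a3 they were Cep19 (0.84), Gm10282 (0.78), Sgcd, a sarcoglycan (0.78), Fam120a (0.78) and Ifngr1, an interferon gamma receptor chain (0.77).

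Of the chains that can stand in for alpha 3, Col6a4 was higher in GFP-positive cells of both colons. It had 382, 293 and 554 counts in GFP-positive DSS colon cells, against 57, 56 and 73 in GFP-negative cells. In the normal colon it had 749, 221 and 864 counts in GFP-positive cells, against 19, 129 and 48 in GFP-negative cells. The groups did not overlap in either, with a wide gap in the DSS colon and a narrow one beside the spread of the groups in the normal colon. For Col6a4 the log2 fold change was 2.67 in the DSS colon (SE 0.23, adjusted p = 1.3e-06), 3.38 in the normal colon (SE 0.65, adjusted p = 0.011) and 3.02 over both conditions (SE 0.44, adjusted p = 0.00036). In relation to Col6a3 of the same library, Col6a4 reached 5.40% to 8.97% in GFP-positive and 0.950% to 1.56% in GFP-negative cells of the DSS colon. The call in the normal colon was lost without GFP-negative library 1 (adjusted p = 0.0996) and without GFP-positive library 1 or 3 (adjusted p = 0.051 and 0.052). Col6a4 was not called for DSS (0.43 over both sorts, adjusted p = 0.49). In the small intestine Col6a4 had 80, 96 and 140 counts in GFP-high cells, 21, 30 and 38 in GFP-low cells and 25, 21 and 58 in GFP-negative cells. All GFP-high libraries were above the rest, but the log2 fold change of 1.68 over GFP-negative cells did not pass (adjusted p = 0.19). The 8 smooth muscle markers summed to 1887 to 2835 CPM in GFP-high, 350 to 486 in GFP-low and 339 to 939 in GFP-negative libraries of the small intestine, so they too stood highest in GFP-high cells, and their part in the Col6a4 values was not tested. The annotation has Gm47575 and other genes on the opposite strand within Col6a4, and whether reads were counted by strand is not stated.

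Col6a5, at lower levels, went with DSS in the other direction from Col6a1. On the common scale it had 109, 73 and 111 counts in the DSS colon, against 47, 50 and 70 in the normal colon, in GFP-positive cells. In GFP-negative cells it had 61, 58 and 75 counts in the DSS colon, against 20, 49 and 23 in the normal colon. In both sorts every DSS library was above every normal one. In GFP-positive cells alone the log2 fold change of Col6a5 was 0.80 and passed with limma. That call was lost with library totals made equal (adjusted p = 0.098) and with no filter on level (adjusted p = 0.0503). It was also lost in 1 fit of all sorted colon groups (adjusted p = 0.102) and in 4 of 6 fits without 1 library (adjusted p up to 0.158). In GFP-negative cells alone the value was 1.15 and did not pass. Neither sort passed in the authors' DESeq test. Over both sorts the log2 fold change was 0.98 (SE 0.23, adjusted p = 0.0039). It was also called by GFP status over both conditions (0.75, SE 0.23, adjusted p = 0.030), a call lost in 7 of the 12 fits that left out 1 library: GFP-positive library 3 or GFP-negative library 1 or 3 of the normal colon, or GFP-positive library 1 or 3 or GFP-negative library 1 or 2 of the DSS colon (adjusted p 0.056 to 0.081). Among small intestine cells Col6a5 was greatest in GFP-low ones, with 323, 536 and 344 counts, against 112, 91 and 132 in GFP-negative cells. GFP-high cells stood between them, with 151, 236 and 201 counts. The log2 fold change of GFP-low over GFP-negative cells was 1.81 (SE 0.32, adjusted p = 0.039), and each library left out in turn took the adjusted p above 0.05. The 5 pericyte markers summed to 1353 to 2606 CPM in GFP-high, 2462 to 3477 in GFP-low and 701 to 1020 in GFP-negative libraries of the small intestine, in the same order of means as Col6a5, and their part in its difference was not tested. Col6a6 was called neither for GFP status nor for DSS and was not in the tables of all small intestine groups.

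**Figure D4:**
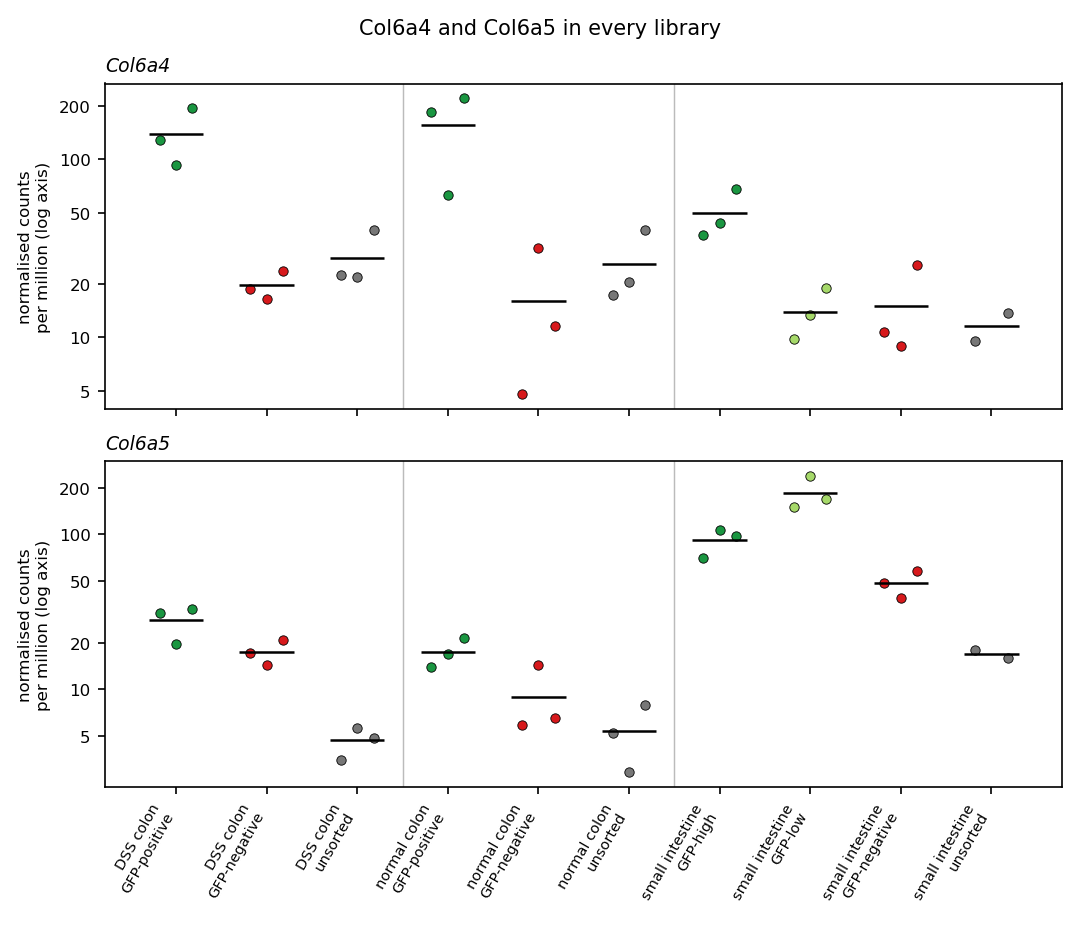
Normalised read counts in CPM (log axis) for Col6a4 and Col6a5; each point is a library and each bar the mean of its group. Col6a4 stands high in GFP-positive cells of both colons and Col6a5 in GFP-low cells of the small intestine, at 150 to 238 CPM.

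Among the proteins that collagen VI meets outside the cell, 10 binding partners were tested over both conditions of the colon. By GFP status 3 were higher and 4 lower, with a median log2 fold change of -0.45 beside 0.00 for all genes, of which 7.7% were higher and 8.42% lower. Tgfbi, which binds collagen VI and integrins, was higher in GFP-positive cells (1.87, adjusted p = 3.1e-07), as was the matrilin gene Matn4 (1.81, adjusted p = 0.00027). Tnxb, or tenascin-X, was lower (-1.99, adjusted p = 6.3e-05), and the small proteoglycans Dcn (-1.76, adjusted p = 1.2e-06) and Lum (-1.56, adjusted p = 2.4e-05) were lower. Under DSS 1 was higher and 5 lower, with a median of -0.61 beside -0.01 for all genes, of which 15.9% were higher and 14.8% lower. Those lower included Fn1, the fibronectin gene (-1.07, adjusted p = 0.00021), and Vwa1, a matrix protein of the collagen VI network (-1.86, adjusted p = 0.00063), and Matn4 was higher (1.65, adjusted p = 0.00058). Of 6 receptors tested, 2 were higher and 1 lower by GFP status, and 3 were lower under DSS. Cspg4, the NG2 proteoglycan that binds collagen VI, was higher in GFP-positive cells (1.42, adjusted p = 2.2e-05) and lower under DSS (-0.76, adjusted p = 0.0049). The anthrax toxin receptor genes Antxr2 (-0.66, adjusted p = 0.010) and Antxr1 (-0.46, adjusted p = 0.042), whose products bind collagen VI, were also lower under DSS. Of 22 genes for collagen modification and secretion, 2 were higher and 3 lower by GFP status, beside 7.7% and 8.42% of all genes. Largest in change were the proline hydroxylase genes P4ha3, lower (-2.31, adjusted p = 7.7e-06), and P3h2, higher (2.13, adjusted p = 3.8e-07). Of the same 22 genes 4 were higher and 4 lower under DSS, beside 15.9% and 14.8% of all genes, with a median of -0.03. These counts are near the shares of all genes and do not set the list apart. Serpinh1, the collagen chaperone HSP47, was among the higher ones (0.74, adjusted p = 0.0098). Of 5 proteases, Mmp9 was higher (3.21, adjusted p = 0.00013) and Mmp11, which cuts the alpha 3 chain, lower under DSS (-1.03, adjusted p = 0.00044). Mmp9 was also called lower in each of the 7 sorted groups than in unsorted cells. Of 8 immune markers tested under DSS over both sorts, S100a8 and Itgam were higher and none lower, with a median of 0.72. The summed level of the immune list did not rise alike. In GFP-negative libraries it was 128 to 299 CPM under DSS and 262 to 1124 CPM in the normal colon. In GFP-positive libraries it was 43.7 to 145 CPM under DSS and 30.5 to 123 CPM in the normal colon. The part of immune cells in the Mmp9 difference was not tested.

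The other collagens give a measure for the fall of Col6a1 and Col6a2. Of 7 fibrillar and basement membrane collagen chains, only Col1a1 passed under DSS over both sorts (-0.63, adjusted p = 0.010), with a median of -0.37, where 14.8% of all genes were called lower. In GFP-positive cells alone 4 of the 7 were lower, beside 9.46% of all genes, led by Col3a1 (-1.34, adjusted p = 0.0017) and Col1a1 (-1.10, adjusted p = 0.0035), beside -1.23 for Col6a1. In GFP-negative cells none of the 7 passed with limma, beside 10.3% of all genes, and Col3a1 and Col1a1 stood at 0.38 and -0.17, beside -1.04 for Col6a1 and -0.77 for Col6a2, which did not pass there either.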

How the data were processed

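Per the labels' protocols, RNA was extracted with RNeasy kits, those with a RIN above 7 were kept, and libraries were made with the QuantSeq 3' kit and sequenced on an Ion Proton. Per the submitters' processing notes, the authors used TopHat2, Bowtie2 and DESeq with mm10; no source used here names versions, counter, annotation or strand setting. Levels are treated as scores: per the file headers they are normalised counts, and the authors had rounded them to whole numbers. Log2 fold changes and p-values (FDR) of the authors stand beside them, per the file headers. Each of the 14 tables holds a pair of groups. A library's values were identical in all tables of a tissue and condition, and the ratio of the common to the own scale was 1.17 to 1.18 for colon libraries under DSS and 0.836 to 0.844 for normal ones, from which it was inferred that GFP-positive and GFP-negative tables share the common scale.

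Genes averaging 10 or more in either group were tested on log2(value + 1) with limma 3.58.1 in R 4.3.3 (trend and robust variance), Benjamini-Hochberg over all genes of a comparison, threshold 0.05, after a test on simulated data. Groups of 3 cannot give an exact p under 0.1, so ratios of chains were tested over both strata of the colon with an exact two-sided permutation test. Depth was estimated from the spacing of values. Levels in CPM, which set separate scales side by side, are descriptive. Named from the lists were at most 5 members past the threshold of largest change, receptors past it (by GFP status only Cspg4), and the 5 genes most like each chain. The members, gene lists and tests were chosen with earlier results of these data known. Alternatives were equal library totals, median-of-ratios size factors, log2(value + 8), no filter, a replicate block, a joint fit and leaving out each library.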

Additional observations from a re-analysis of the deposited data

Results flagged for a closer look

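Col6a3 was drawn out because its GFP difference ran in opposite directions in the colon and in GFP-low cells of the small intestine, a difference that was not tested. Every GFP-positive library lay above the mean log2 level of the GFP-negative cells, by a mean of 0.22 in the DSS colon and 0.67 in the normal colon. Every GFP-low library of the small intestine lay below the mean of its GFP-negative cells, with a mean difference of -0.43. GFP-high cells were not drawn out. Their mean difference was -0.34, but their library 2, at 9201 counts, lay above the GFP-negative mean. None of these comparisons passed the threshold with limma.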

How the results depend on the processing

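Of 297 values for the chains under alternatives other than leaving out a library, 285 kept their direction and their side of the threshold. Equal library totals made the DSS change of Col6a1 in GFP-negative cells pass (-1.16, adjusted p = 0.047) and Col6a2 in GFP-positive over unsorted cells of the normal colon (1.36), lost Col6a2 in GFP-negative over unsorted cells of the DSS colon (0.70, adjusted p = 0.081), and turned the uncalled DSS changes in GFP-positive cells of Col6a3 to -0.0023, of Col6a4 to -0.043 and of Col6a6 to -0.081. They moved the median of all genes under DSS to -0.13 in GFP-positive and -0.14 in GFP-negative cells, against -0.01 and -0.02, and the split of DSS calls over both sorts to 1597 higher and 2666 lower, against 2139 and 2000. Median-of-ratios factors made Col6a2 in GFP-positive over unsorted cells of the normal colon pass (1.23, adjusted p = 0.0499), as did the joint fit (1.23). The joint fit also made Col6a1 under DSS in GFP-negative cells pass (-1.04, adjusted p = 0.027) and lost Col6a2 in GFP-positive cells (-0.80, adjusted p = 0.067). The cause of these changes was not tested.

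Replicate numbers were not used to pair the samples, because the labels do not say that a number marks a mouse. In no comparison of 3 pairs did every same-numbered pair correlate over 0.1 (r from -0.30 to 0.36). These values cannot settle whether the samples were paired, since some pairs correlated and each rests on few libraries. With a replicate block, Col6a2 by GFP status in the normal colon (1.05, adjusted p = 0.043), Col6a1 under DSS in GFP-negative cells (-1.04, adjusted p = 0.048) and Col6a2 in GFP-positive over unsorted cells of the normal colon (1.23, adjusted p = 0.047) passed, and Col6a1 in GFP-negative over unsorted cells of the small intestine (2.26, adjusted p = 0.068), Col6a4 by GFP status in the normal colon (3.38, adjusted p = 0.178), Col6a5 in GFP-low over GFP-negative cells (1.81, adjusted p = 0.065) and over unsorted cells in GFP-negative cells of the small intestine (1.51, adjusted p = 0.126), and Col6a5 under DSS in GFP-positive cells (0.80, adjusted p = 0.0505) did not.

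With 1 library left out, GFP-positive over GFP-negative values ran from 0.04 to 0.67 for Col6a1 in the DSS colon, and over both conditions from 0.26 to 0.58 for Col6a1 and from 0.33 to 0.54 for Col6a3; for Col6a6 in the normal colon they ran from -0.047 to 0.14. DSS changes in GFP-positive cells ran from -0.97 to -0.68 for Col6a2, -0.035 to 0.31 for Col6a3, -0.54 to 0.44 for Col6a4 and -0.029 to 0.094 for Col6a6, and in GFP-negative cells from -1.41 to -0.78 for Col6a1 and -1.13 to -0.60 for Col6a2. The difference of DSS responses ran from -0.45 to 0.18 for Col6a1 and -0.20 to 0.33 for Col6a2. In the small intestine, GFP-high over GFP-negative ran from -0.29 to 0.51 for Col6a1, GFP-high over GFP-low from -0.048 to 0.43 for Col6a2 and -0.18 to 0.29 for Col6a3, and GFP-low over GFP-negative from -0.39 to 0.32 for Col6a4.

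Over unsorted cells of the normal colon the ranges were 0.88 to 1.49 for Col6a2 in GFP-positive cells and 1.13 to 1.57 for Col6a1 and -0.17 to 0.53 for Col6a2 in GFP-negative cells. In GFP-negative cells of the DSS colon they were 0.97 to 1.75 for Col6a1, 0.56 to 1.05 for Col6a2 and -0.42 to 0.014 for Col6a4. In the small intestine they were, for GFP-high cells, 1.88 to 3.49 for Col6a1, 2.69 to 3.24 for Col6a2 and 1.78 to 2.25 for Col6a3, for GFP-low cells, 2.42 to 4.03 for Col6a1, 1.84 to 2.05 for Col6a3 and -0.055 to 0.38 for Col6a4, and for GFP-negative cells, 1.76 to 3.38 for Col6a1, 2.17 to 2.63 for Col6a2, 2.21 to 2.60 for Col6a3 and -0.16 to 0.55 for Col6a4. Where this left 1 unsorted library, it was assumed to vary like the others. The log2 ratio of Col6a1 to Col6a2 ran from -0.80 to -0.48 by GFP status and -0.51 to -0.19 under DSS, that of Col6a1 to Col6a3 from -0.19 to 0.14 by GFP status and -1.66 to -1.34 under DSS, and that of Col6a2 to Col6a3 under DSS from -1.41 to -0.93.

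Counts of all genes called moved by more than 1.5 times in some fits. The joint fit gave 2061 genes against 1341 for DSS in GFP-negative cells, 219 against 111 for GFP-high over GFP-negative, 21 against 47 for GFP-high over GFP-low, and 1068 and 1299 against 2300 and 3067 for GFP-high and GFP-low over unsorted cells. The block gave 43 against 84 for GFP-low over GFP-negative, 91 against 47 for GFP-high over GFP-low and 845 against 1543 for GFP-negative over unsorted cells of the small intestine. For GFP-low over GFP-negative cells equal totals gave 44 and log2(value + 8) gave 143 against 84, and for the difference of DSS responses log2(value + 8) gave 13 against 7. With 1 library left out the count ran from 454 to 888 by GFP status in the normal colon, 1253 to 2611 for DSS in GFP-positive cells and 360 to 1882 in GFP-negative cells. For the small intestine it ran from 24 to 104 for GFP-high over GFP-negative, 6 to 76 for GFP-low over GFP-negative and 14 to 52 for GFP-high over GFP-low, and over unsorted cells from 0 to 2524 in GFP-high, 210 to 2983 in GFP-low and 0 to 1627 in GFP-negative cells, so the shares of all genes called there rest on single libraries; where limma called 0, without unsorted library 2, 2469 and 1955 genes had an unadjusted p under 0.05 in GFP-high and GFP-negative cells. Depth limits Col6a4 and Col6a5 more than the members, which had 142 counts or more in every library.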
